A study of Mus musculus with 6 samples.

Results

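The genes described here are 10 genes of skeletal muscle excitation-contraction coupling, of 21887 protein-coding genes on the assembled mouse chromosomes. They were chosen by name: Cacna1s, Cacng1 and Stac3 of the voltage sensor, Ryr1 and Trdn of the release channel, Jph1 and Jph2 of the membrane junction, and Casq1, Casq2 and Atp2a1 of the calcium store. Each gene was taken with 20 kb on either side of its RefSeq span, and every LncMyoD ChIRP-seq peak overlapping that window was collected. A shared region was the union of peaks of the 2 deposited lists that overlapped each other by at least 1 bp. The 10 windows held 81 of the 97115 shared regions on the assembled chromosomes.

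Excitation-contraction coupling turns a muscle action potential into calcium release. In the transverse tubule, the voltage sensor Cav1.1 changes shape on depolarization and, through the adaptor Stac3, opens the ryanodine receptor of the facing sarcoplasmic reticulum. Junctophilins hold the membranes together at the triad, triadin and calsequestrin keep calcium close to the release channel, and the SERCA pump returns it to the store. The genes are switched on as myoblasts fuse into myotubes, under MyoD and its partners.

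ChIRP captures a chosen RNA with biotin-labelled DNA probes and recovers the chromatin attached to it. It was applied to LncMyoD, a long non-coding RNA encoded beside Myod1, in myotubes of C57BL/6 mice, made from primary myoblasts by 2 days in DMEM with 2% horse serum. The 6 samples were 2 captures with an odd probe pool, 2 with an even probe pool and 2 input samples, all from the same kind of cell and strain. Each deposited list carries the name of 1 replicate, which its odd, even and input samples share, so a list was read as pooling that replicate by the authors, and no pool could be set against input. The labels do not say whether replicates were separate cultures. Fold is the authors' enrichment at the summit of a peak over the background their caller estimated. Sequencing depth is unknown from these files, and so is expression, so the myotube label could not be checked against marker genes.

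All 10 genes had a shared region in their window, and so did 89.6% of all protein-coding genes. The windows held 115 peaks of list 1 and 140 of list 2. The number of shared regions ran from 3 at Casq1 and at Atp2a1 to 15 at Trdn, over windows of 47.2 to 433 kb. Per 100 kb of window the median was 6.93 shared regions over the 10 genes and 4.27 over all protein-coding genes, and 9 of the 10 lay above that all-gene median. A shared region of at least 20-fold in both lists lay in 8 of the 10 windows, against 45.8% of all protein-coding genes and 50.3% of the 15072 genes whose window was within the same range of length. At 40-fold the count was 5 of 10, namely Casq2, Jph1, Ryr1, Stac3 and Trdn, against 16.2% of all genes and 17.8% of those 15072. The median window was 101 kb for the 10 genes and 57.2 kb for all protein-coding genes. For the 15072 genes the median window was not computed, and a shared range alone does not match window length within it. These shares are therefore not corrected for length. No test was made of these counts, since the genes were named with results of the series known.

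**Figure D1:**
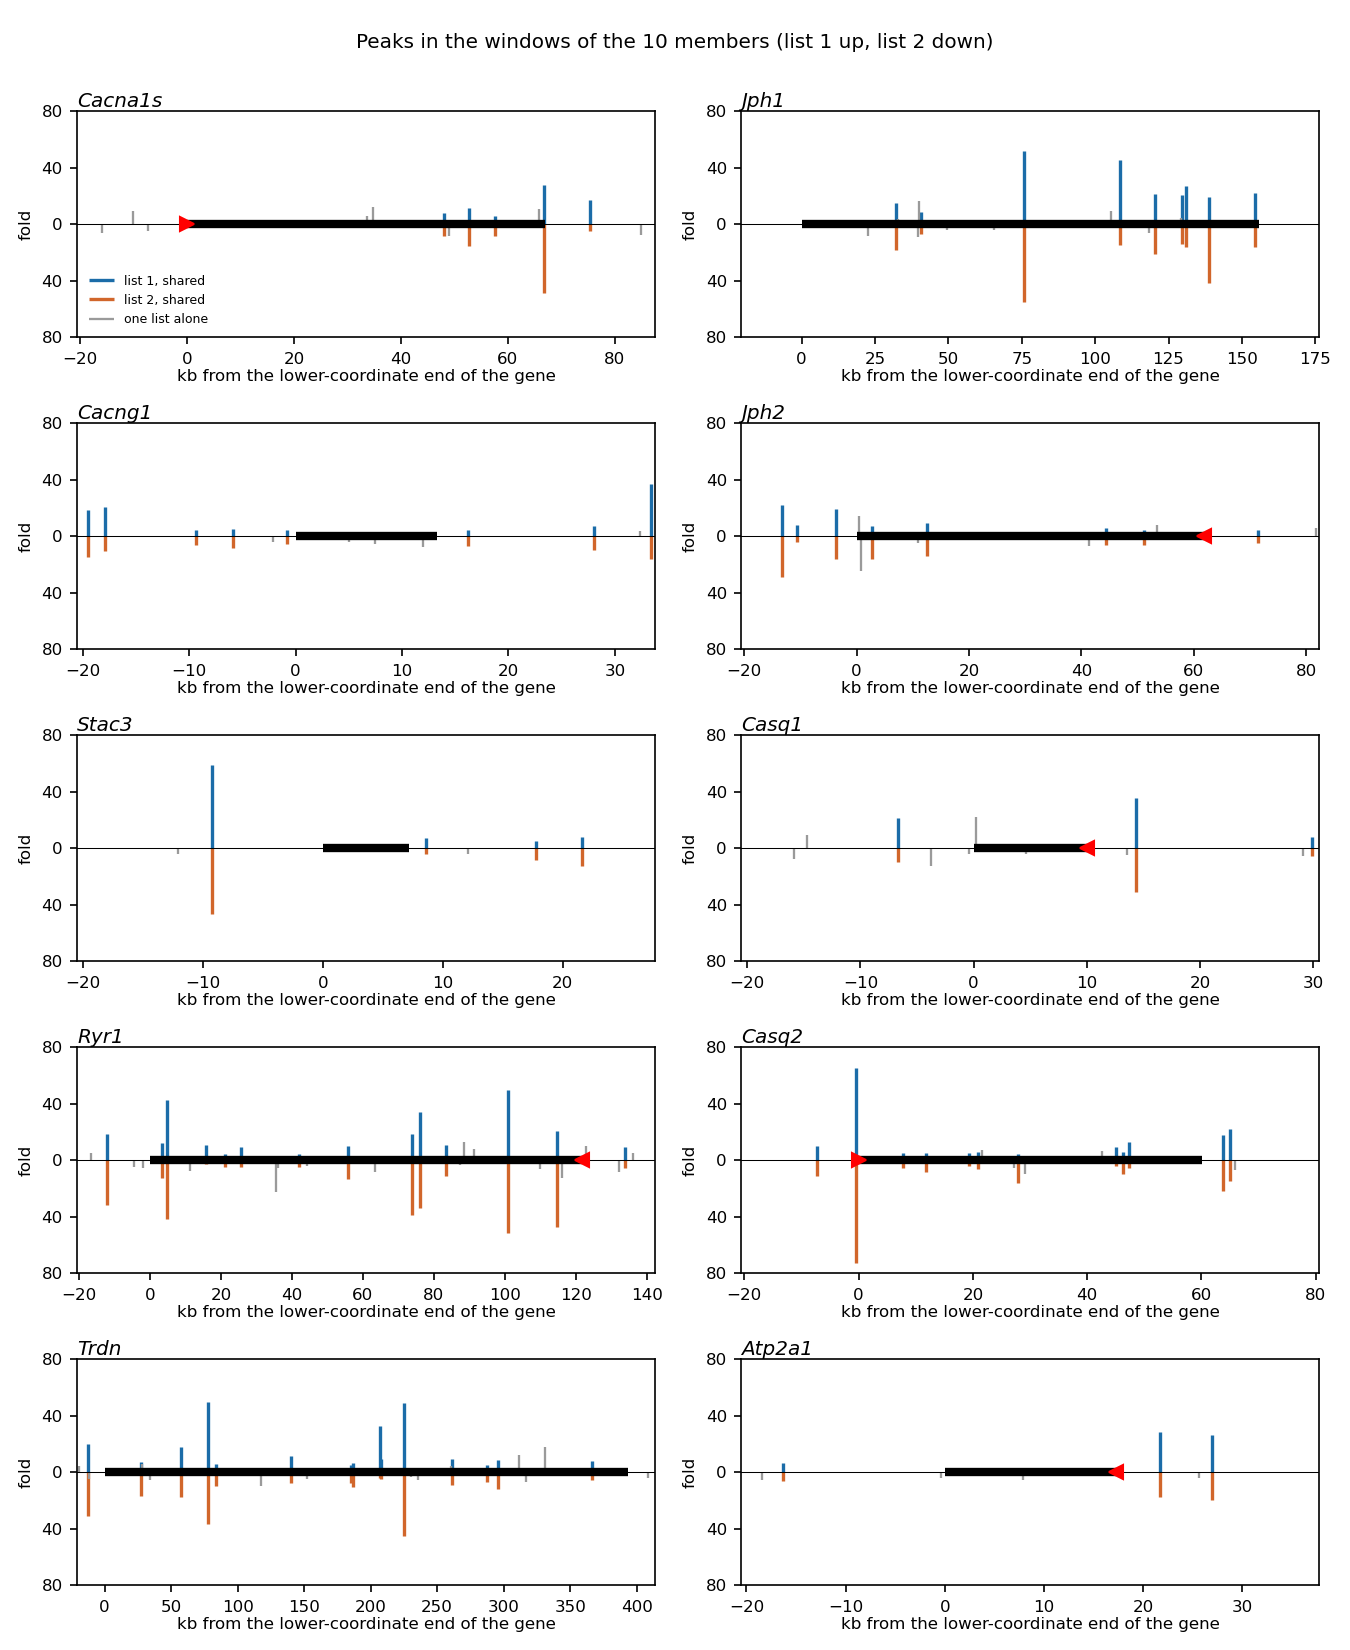
Peaks in the 10 windows, drawn by distance in kb from the end of each gene with the lower coordinate, with fold in list 1 upward and in list 2 downward. Blue and orange lines are the 81 shared regions at their midpoints, grey lines are peaks of 1 list alone, the black bar is the gene, and the red arrowhead marks the start site and direction where RefSeq's promoter table gives them. The tallest pair stands at the start of Casq2, and no shared region lies inside Cacng1, Stac3, Casq1 or Atp2a1.

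Taken by the lower of the folds of the best region in each window, the store genes ran from the highest of the 10 to almost the lowest. Casq2 stood first at 65.1, and Atp2a1, at 19.5, stood above Cacng1 alone. By the median fold of its 3 shared regions, Atp2a1 was instead the highest of the 10, at 26.4 in list 1 and 17.3 in list 2. Casq2 encodes calsequestrin 2, the calcium-binding store protein of heart and slow muscle, and Casq1 its counterpart of fast skeletal muscle. Atp2a1 encodes SERCA1, the calcium pump of fast fibres. The 300 bases from 250 before to 50 after the start site are shown for these 3 genes, because the Casq2 promoter, alone among those of the 6 members with a promoter in the table, had a peak over it. The sequences are RefSeq's, of build GRCm38.p6, in the direction of the gene, and capitals mark each E-box, CANNTG, the motif that MyoD and other bHLH factors bind.

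Casq2 promoter, chr3:102086165-102086464, plus strand: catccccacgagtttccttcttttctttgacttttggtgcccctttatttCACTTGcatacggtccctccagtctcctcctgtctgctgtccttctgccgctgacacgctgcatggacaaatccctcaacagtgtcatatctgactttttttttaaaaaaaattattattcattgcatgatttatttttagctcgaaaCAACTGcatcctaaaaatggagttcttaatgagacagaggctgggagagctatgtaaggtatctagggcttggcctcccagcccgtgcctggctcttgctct
Casq1 promoter, chr1:172219846-172220145, minus strand: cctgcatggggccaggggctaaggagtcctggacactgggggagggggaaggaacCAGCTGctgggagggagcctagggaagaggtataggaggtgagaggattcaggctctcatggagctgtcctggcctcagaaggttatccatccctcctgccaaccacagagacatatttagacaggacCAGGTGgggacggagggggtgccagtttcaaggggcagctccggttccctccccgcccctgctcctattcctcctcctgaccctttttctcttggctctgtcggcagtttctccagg
Atp2a1 promoter, chr7:126463024-126463323, minus strand: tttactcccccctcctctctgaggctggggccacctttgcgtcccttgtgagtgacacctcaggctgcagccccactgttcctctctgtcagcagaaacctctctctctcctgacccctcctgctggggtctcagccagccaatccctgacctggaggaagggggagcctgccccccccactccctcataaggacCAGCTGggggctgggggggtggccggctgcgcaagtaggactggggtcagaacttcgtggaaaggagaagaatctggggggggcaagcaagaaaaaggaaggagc

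Casq2 (chromosome 3, 102086415 to 102146514) had a shared region from 102084640 to 102087243, 2604 bp wide, which covers the whole of the promoter shown. Its fold was 65.1 in list 1 and 72.4 in list 2. It took place 212 of 97115 when shared regions were ordered by the mean percentile of −log10 q in the lists. The summits did not coincide: that of list 1 lay at -444 and that of list 2 at 46 relative to the start site, 490 bp apart, so the region is not shared if summits must lie within 200 bp. The other shared regions of the Casq2 window were lower. Of these, 8 lay inside the gene, with folds of 4.41 to 12.9 in list 1 and 4.09 to 16.4 in list 2. A pair lay beyond the far end, 3132 and 4496 bp from the gene, with folds of 18 and 21.9 for the nearer region and 22.0 and 14.8 for the farther, in list 1 and list 2. Both of these were closer to Vangl1, a planar cell polarity gene. The remaining region lay 6725 bp upstream, with folds of 10.3 and 11.1. At 11.99 shared regions per 100 kb, the Casq2 window stood at the 96.3rd percentile of all protein-coding genes. That place counts weak regions. The 12 regions became 8 with folds of at least 5 in both lists and 4 with folds of at least 10. With the 50000 peaks of highest −log10 q in each list they became 3.

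Casq1 (chromosome 1, 172209894 to 172219895) held no shared region inside the gene. The strongest in its window lay 3860 bp upstream of the start site, from 172223755 to 172224763, with folds of 35.3 in list 1 and 31.2 in list 2. It overlaps Atp1a4, which encodes a sodium pump subunit of sperm. The other pair lay in Pea15a (21.7-fold and 10.03-fold) and farther along Atp1a4 (7.71-fold and 5.56-fold). At the 3′ end of Casq1, list 1 had a peak of 22.0-fold from 172209766 to 172210434 and list 2 a peak of 4.32-fold from 172209184 to 172209756. These peaks are 9 bp apart, so they count as peaks of 1 list each. The nearest peak to the Casq1 promoter was 3609 bp away in list 1 and 3137 bp in list 2.

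Atp2a1 (chromosome 7, 126445858 to 126463103) likewise had nothing shared inside it. The gene held 1 peak of each list, 2.9-fold in list 1 and 5.87-fold in list 2, with 11 bp between them. A broad region of 3306 bp, from 126465857 to 126469162, began 2784 bp upstream of the start site and reached 28.6-fold in list 1 and 17.3-fold in list 2. It was the only region of the 81 wider than 3000 bp, joined 2 peaks of list 1 with 3 of list 2, and ran into Sh2b1, an adaptor gene of receptor tyrosine kinase signalling. The fold of a joined region is the highest of its peaks in that list. Here the summits of the best peaks by −log10 q lay 1878 bp apart, so the 2 folds belong to different places. A second region, of 26.4-fold and 19.5-fold, lay from 126472434 to 126473116, 9361 bp from the Atp2a1 start site. It overlapped only the lower-coordinate part of the annotated promoter of Sh2b1 (126473045 to 126473344). The remaining region, 6.61-fold and 6.49-fold, lay in Rabep2 on the other side.

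Among the 6 members with a promoter in the table, 1 had a shared region over it, against 10.8% of the 17492 protein-coding genes with one. No peak of either list touched the promoters of Casq1, Atp2a1, Cacna1s, Jph2 or Ryr1. The Casq2 promoter holds 2 E-boxes, at -200 and at -52 relative to the start site. Neither is CAGCTG, a form of the E-box that MyoD favours. That form was found in the promoters without a peak at Casq1 (-195), Atp2a1 (-55), Cacna1s (-123) and Jph2 (-29 from one of its start sites), and the Ryr1 promoter holds no E-box. Both strands were searched, and each CANNTG also reads as a CANNTG on the other strand. An E-box lies in 69.0% of 21263 promoters of protein-coding genes and CAGCTG, itself a CANNTG, in 15.6% of them. For the MEF2 site only a narrow spelling was searched for, which was found in 0.489% of them and in none of these promoters. Looser spellings of that site were not counted. The promoters shown, that of Casq2 included, may therefore hold a MEF2 site in another spelling. A match is a description of the letters and not of binding.

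The genes of the release channel complex, Ryr1 and Trdn, had 14 and 15 shared regions when weak ones were counted. With folds of at least 10 in both lists the counts were 8 at Ryr1 and 4 at Trdn, with 8 at Jph1, and with the 50000 peaks of highest −log10 q in each list they were 6, 4 and 7. Ryr1 encodes the ryanodine receptor of skeletal muscle, the calcium release channel itself. Its gene (chromosome 7, 29003340 to 29125179) held 12 shared regions and its flanks 2, or 8.65 per 100 kb, and 8 of the 14 were at least 10-fold in both lists. They were spread along the gene rather than gathered at its start, as the map of the windows shows. The strongest, from 29103184 to 29105168, began 19983 bp downstream of the start site, with folds of 49.8 in list 1 and 51.6 in list 2. Near the 3′ end, 116054 bp from the start site, a region from 29007400 to 29009097 had folds of 42.6 and 41.4. These are nearly equal heights in the lists, as were the 33.9 and 34.0 of a region from 29078699 to 29080385. Closer to the start, 6011 bp downstream, a region from 29117123 to 29119140 was higher in list 2 (47.6-fold) than in list 1 (20.9-fold). Between the start site and that region list 2 had a peak of 12.4-fold and list 1 none. The peak nearest to the promoter was a 9.92-fold peak of list 1, 644 bp away, without a partner. Beyond the gene, the regions in the flanks lay in Map4k1 (18.4-fold and 31.8-fold) and Rasgrp4 (9.52-fold and 5.43-fold).

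Trdn encodes triadin, which links the ryanodine receptor to calsequestrin. It is the longest of the 10 genes (chromosome 10, 33083483 to 33476709) and had the most shared regions, 14 inside and 1 outside, but the lowest density, 3.46 per 100 kb, at the 40.3rd percentile of all genes. The strongest were a region from 33307551 to 33309262, of 49.1-fold in list 1 and 44.8-fold in list 2, and one from 33160880 to 33162086, of 49.95-fold and 36.9-fold. The others inside the gene were 17.9-fold or lower in list 1, with 1 exception. That region, from 33290267 to 33290883, had folds of 32.5 in list 1 and 3.86 in list 2. Their ratio of 8.43 was the largest between the lists among the 81. The region outside lay 11571 bp below the gene with folds of 20.2 and 31.2, and no annotated gene overlaps it. Another inside Trdn, of 11.8-fold and 7.81-fold, also overlaps the long non-coding RNA gene D830005E20Rik. RefSeq's promoter table has no entry for Trdn here, so no distance from its start site is given.

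The junctophilin genes differed in where their signal lay. Jph1 encodes junctophilin 1, which tethers the transverse tubule to the sarcoplasmic reticulum in skeletal muscle. All 9 of its shared regions lay inside the gene (chromosome 1, 16942104 to 17097922), and 8 of them were at least 10-fold in both lists. The strongest, from 17016606 to 17018874, had folds of 51.6 in list 1 and 55.0 in list 2 and took place 2626. The next by q, from 17079878 to 17081615, had folds of 19.5 and 41.4, and one from 17050386 to 17051009 had 45.2 and 14.8. The lists thus ordered this pair differently. The median over the 9 regions was 21.6-fold in list 1 and 16.4-fold in list 2. For comparison, the median of all shared regions was 10.97-fold in list 1 and 12.01-fold in list 2.

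Jph2 encodes junctophilin 2, the form that heart and skeletal muscle share. Its 8 shared regions were split, with 4 inside the gene (chromosome 2, 163336242 to 163398049) and 4 outside. The highest were outside, past the 3′ end: 22.0-fold in list 1 and 28.7-fold in list 2 in Tox2, 12484 bp away, and 19.4-fold and 16.5-fold in a region 3113 bp away that overlaps no gene. Inside the gene the folds were 4.04 to 9.55 in list 1 and 6.18 to 16.4 in list 2. Just within the 3′ end, list 1 had a 14.0-fold peak and list 2 a 24.4-fold peak with 13 bp between them, which by the rule are not shared. The medians over the 8 regions were 7.53-fold and 10.3-fold, below those of Jph1 in both lists. Regions of 1 window share their neighbourhood, so they are no replicates and the difference was not tested.

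Of the voltage sensor genes, Cacna1s had its signal away from its start site, and Cacng1 and Stac3 have no start site in the promoter table used here. Cacna1s encodes Cav1.1, the pore-forming subunit and voltage sensor (chromosome 1, 136052806 to 136119822). Its 5 shared regions all lay at least 47815 bp downstream of the start site, 4 of them in the gene. The strongest, from 136118996 to 136120236, spans the 3′ end of the gene, with folds of 27.8 in list 1 and 48.5 in list 2. The 3 others inside the gene were 5.88- to 11.3-fold in list 1 and 8.03- to 15.1-fold in list 2. A region 7866 bp beyond the 3′ end, in the long non-coding RNA gene Gm15850, was 16.9-fold in list 1 and 4.94-fold in list 2. Between the start site and the first of them list 1 had 2 peaks, of 5.88-fold and 12.1-fold, and list 2 none.

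Cacng1 encodes the gamma-1 subunit of the same channel. Its window had the highest density of the 10, 8 shared regions in 53.3 kb or 15.0 per 100 kb, at the 98.9th percentile of all protein-coding genes. This place rested on weak and distant regions: the count was 4 with folds of at least 5 in both lists, when the longer Casq2 window of 100.1 kb held 8, and it was 2 with the 50000 peaks of highest −log10 q in each list and 2 with flanks of 5 kb. None lay inside the gene (chromosome 11, 107703218 to 107716476), in which list 2 had 3 peaks of 4.02- to 7.72-fold and list 1 none. The strongest region, of 36.7-fold in list 1 and 16.1-fold in list 2, lay in the neighbouring Cacng4, a gamma subunit gene of the same family, 19378 bp away. A pair of 18.7-fold and 14.8-fold and of 20.6-fold and 10.5-fold lay in Helz, a helicase gene. The regions for which Cacng1 itself was the nearest gene were weak, 4.35-fold and 5.25-fold at 694 bp and 4.04-fold and 7.10-fold at 2682 bp.

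Stac3 encodes the adaptor that couples Cav1.1 to the ryanodine receptor. Its gene (chromosome 10, 127501617 to 127508823) is the shortest of the 10, and no peak of either list lay in it. A region of 59.0-fold in list 1 and 46.6-fold in list 2, from 127491242 to 127493394, lay 8223 bp away inside R3hdm2. It took place 2322 of 97115. The other 3 regions, in or beside Ndufa4l2 and Shmt2, were 5.26- to 7.72-fold in list 1 and 4.22- to 12.7-fold in list 2. The one 985 bp from Stac3, in Ndufa4l2, was alone within 1 kb of the gene and was weak, at 6.96-fold and 4.22-fold.

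**Figure D2:**
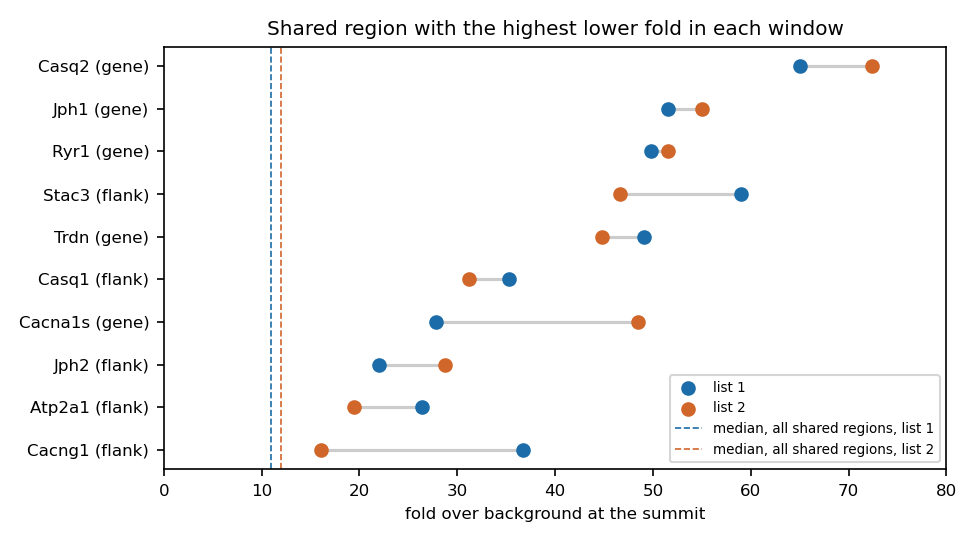
Fold in list 1 (blue) and list 2 (orange) of the shared region with the highest lower fold in each window, with the genes in order of that fold and the place of the region, inside the gene or in a flank, in brackets. Dashed lines are the medians of all 97115 shared regions, 10.97 and 12.01. Every point lies to the right of both lines, from Casq2 at 65.1 and 72.4 to Cacng1 at 36.7 and 16.1. Each point is the best region of its window and the lines are medians of single regions, so their distance is no measure of enrichment. The median of the best lower fold was 20.4 over all protein-coding genes with a shared region in the window.

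Taken by the lower of its folds, the order of the best regions was Casq2 (65.1), Jph1 (51.6), Ryr1 (49.8), Stac3 (46.6), Trdn (44.8), Casq1 (31.2), Cacna1s (27.8), Jph2 (22.0), Atp2a1 (19.5) and Cacng1 (16.1). With 1 value per list, neighbours in this order cannot be separated: the folds of Jph1, Ryr1, Stac3 and Trdn in the lists all lie between 44.8 and 59.0. Those of Casq2 lie above every other. The median of the best lower fold was 38.0 over the 10 genes and 20.4 over all protein-coding genes with a shared region in the window. Window length was not matched here either. Over single regions the order was the other way: the median lower fold was 7.81 over the 81 regions and 8.96 over all 97115 shared regions.

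Gene length went with where the regions lay. A shared region inside the gene was found at 6 of the 10, against 56.4% of all protein-coding genes. The 4 genes with no shared region inside, Stac3, Casq1, Cacng1 and Atp2a1, span 7.21 to 17.2 kb, and 48.4% of the 4523 protein-coding genes of such length have one inside. Those with regions inside, Cacna1s, Ryr1, Trdn, Jph1, Jph2 and Casq2, span 60.1 to 393 kb, and of the 3798 genes of such length 94.4% have one. Over all 10 genes there were 52 regions in 908 kb of gene, or 5.73 per 100 kb, and 29 in 400 kb of flank, or 7.25 per 100 kb. Over all protein-coding genes the values were 3.96 inside and 4.70 in the flanks. A shared region within 1 kb of either gene end was found at 4 of the 10, Cacna1s, Cacng1, Stac3 and Casq2, against 27% of all genes. The gene table gives no exons, so exons, introns and untranslated regions were not told apart.

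**Figure D3:**
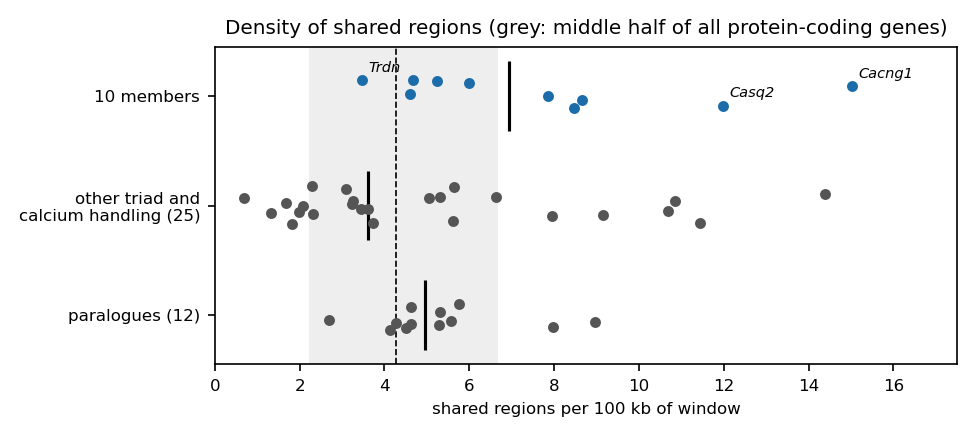
Shared regions per 100 kb of window for the 10 members (blue), 25 other genes of the triad and of calcium handling, and 12 genes listed as paralogues. Each gene is 1 point, with the vertical bar at the median of each group. The dashed line is the median of all protein-coding genes, 4.27, and the grey band runs from 2.24 to 6.66, their lower to upper quartile. The medians of the groups are 6.93, 3.61 and 4.96, and 5 of the 10 members lie to the right of the band.

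Other genes of the pathway were counted in the same way. All 25 other genes of the triad and of muscle calcium handling had a shared region in their window (89.6% of all protein-coding genes), 15 of them one of at least 20-fold in both lists (45.8% of all protein-coding genes) and 4 one of at least 40-fold (16.2%). Their median density was 3.61 per 100 kb, on the other side of the all-gene median from that of the 10. Ranked by mean percentile of −log10 q, Pvalb led them, which encodes the calcium buffer parvalbumin, with a region of 92.6-fold in list 1 and 79.4-fold in list 2, at 8377 bp from the gene. It was followed by Stim1, the calcium sensor of store-operated entry (63.2-fold and 48.8-fold, inside the gene). Next came the calmodulin gene Calm3 (54.0-fold and 48.5-fold, 18888 bp away) and Cacna2d1, an auxiliary subunit of Cav1.1 (41.3-fold and 46.6-fold, inside the gene).

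A further 12 genes were listed as paralogues that serve heart, brain or other tissues. The list is loose: Pln, a regulator gene of the SERCA pump, is no paralogue of a member, and slow muscle also uses Atp2a2. All 12 had a shared region in the window (89.6% of all protein-coding genes), 7 one of at least 20-fold in both lists (45.8%) and 4 one of at least 40-fold (16.2%). The strongest was in Cacna1c, which encodes the cardiac voltage-gated calcium channel Cav1.2, with 84.8-fold in list 1 and 66.7-fold in list 2. Cacna1d (56.9-fold and 44.2-fold), the brain ryanodine receptor gene Ryr3 (43.7-fold and 55.6-fold) and the cardiac Ryr2 (41.9-fold and 59.0-fold) also held their best regions inside the gene. Cacna1c, Cacna1d, Ryr3 and Ryr2 were the 4 at 40-fold and had the longest windows of the 12, from 491 to 650 kb. The median window of all protein-coding genes was 57.2 kb, and the shares given here are not corrected for length. The pump gene of heart and slow muscle, Atp2a2, had a best region of only 7.71-fold and 16.03-fold at 19963 bp.

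The lists were compared by overlap and by height. Of the peaks in the 10 windows, 87 of 115 in list 1 (75.7%, 95% exact binomial interval 66.8 to 83.2%) and 90 of 140 in list 2 (64.3%, interval 55.8 to 72.2%) had a partner. Over the whole lists the shares were 67.2% and 57.8%, inside these intervals, which cover counting error alone. The folds of the 81 regions in the lists had a Spearman correlation of 0.69, as a description over regions that partly share a window. In 15 of the 81 regions (18.5%) the folds differed by more than 2 times, as they did in 14.5% of all shared regions. More than 3-fold gaps were seen in 5, in Trdn, Ryr1, Casq2, Cacna1s and Jph1, of which 4 were higher in list 1.

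**Figure D4:**
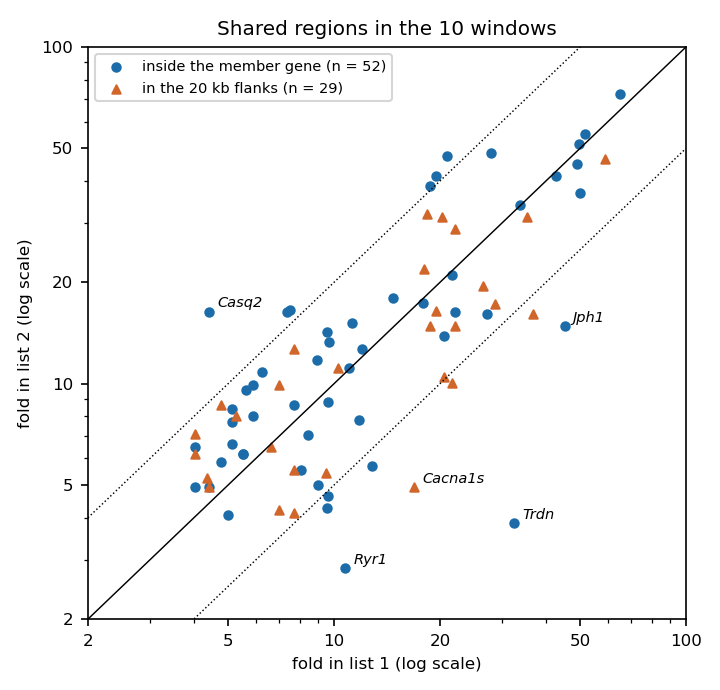
Fold in list 1 against fold in list 2, on log scales, for the 81 shared regions of the 10 windows. Circles lie inside a member gene (52) and triangles in the flanks (29), the solid line marks equal folds and the dotted lines a difference of 2 times. The 5 named points differ by more than 3 times, and the point at the upper right is the Casq2 promoter region at 65.1 and 72.4.

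Peaks of 1 list alone numbered 28 in list 1 and 50 in list 2. Their medians were 7.34-fold in list 1 and 5.63-fold in list 2, against 10.3-fold and 11.1-fold for the 81 shared regions. For all 97115 shared regions the medians were 10.97-fold and 12.01-fold, slightly above those of the 81. Over all peaks without a partner in the whole lists the medians were 5.73-fold and 5.87-fold. At 10-fold or more there were 8 of the 28 and 4 of the 50. At 20-fold or more there were 3: the list 1 peak at the 3′ end of Casq1 and the list 2 peak at the 3′ end of Jph2 described above, each beside a peak of the other list, and a peak of 22.2-fold in list 2 inside Ryr1, from 29038651 to 29039082, whose nearest list 1 peak was 6256 bp away. A peak of the other list lay within 1 kb of 13 of the 28 and 14 of the 50.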

How the data were processed

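MACS2 2.1.1, Bowtie2 2.3.2, Picard 2.9.2 and build mm10 are named in the submitters' processing notes, without roles; which libraries entered a peak call, and its cutoff, is not stated in the sources used here. The authors deposited, per peak, its position, a score, a fold (a ratio to the estimated background), q as a −log10 value, and a summit in bp. The lowest deposited −log10 q was 1.35 in list 1 and 1.32 in list 2. Depth per sample is unknown.

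Genes and promoters came from RefSeq tables of GRCm38.p6, the assembly behind mm10; all 10 members matched by symbol, and 6 had a promoter. Overlaps, windows and densities were computed with Python 3.11.15, numpy 2.4.6, pandas 2.3.3 and scipy 1.17.1, and figures with matplotlib 3.10.9. Overlap and window counts were tested on simulated peaks with planted overlaps. The members, both pathway lists and the rule for named genes (all members, the 4 best of each list, neighbours of described regions) were chosen with earlier results of these data known; Atp2a2 was named after its values were seen. Alternatives changed filters, overlap and window.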

Additional observations from a re-analysis of the deposited data

How the results depend on the processing

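No paired analysis was possible because each list pools the groups of 1 replicate. All 10 members kept a shared region under every alternative except the gene span alone, which left 6. The count of 81 shared regions became 37 with folds of at least 10, 30 with the 50000 peaks of highest −log10 q in each list, 50 with a reciprocal overlap of 50%, and 52 within gene spans. The count of a single window moved by over 1.5 times at 7 of the 10 members with folds of at least 10 and at 8 with the 50000 peaks. Counting peaks of a single list gave 115 to 140. The partnered share of list 1 was 43.5% with reciprocal overlap and 52.2% with summits within 200 bp. That of list 2 was 35.7% and 42.9% there, 76.5% with folds of at least 10 and 81.1% with the 50000 peaks. With summits within 200 bp, 0 members had a shared region over the promoter, since the Casq2 summits lie 490 bp apart. Members with a region of at least 20-fold in both lists numbered 5 within gene spans and 6 to 9 under the other alternatives, against 8. Of the 25 other triad and calcium handling genes, 16 kept a region with the 50000 peaks and 16 within gene spans. The last 3 results were put through the alternatives after the data were seen. Without depth or input tracks, neither weak peaks nor the background of the capture could be measured.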

Other observations

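Many of the regions counted here lie in neighbouring genes. Of the 29 shared regions in the flanks, 17 overlap another protein-coding gene, and a member was the nearest protein-coding gene to 5. At Stac3, Casq1 and Atp2a1 every shared region of the window overlaps or lies nearest to another gene. The window of 20 kb therefore does not assign a region to the coupling gene.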
